A study of Bos taurus with 9 samples.

Results

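This account is about 97 abundant genes of the hatched bovine blastocyst whose level was higher in every one of 6 pools of cooled embryos than in any of 3 control pools. They were chosen from the measured values themselves. Counts were scaled to CPM (a gene's counts in each 1000000 counts of its library), genes with a mean of 50 CPM or more over all 9 libraries were kept, and a gene was a member if its lowest value among the cooled libraries lay above its highest value among the controls. Of 27607 genes in the table, 4030 were that abundant, and 97 of these, 2.41%, were members. The order of the libraries is thus given by the choice, and all levels and fold changes between cooled and control pools below are descriptions with no test. Identifiers are Ensembl bovine gene identifiers. Symbols are not paired with them in the files, so no function is given for any gene, and the label of the tissue could not be checked against marker genes.

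RNA sequencing was done on polyadenylated RNA of Bos taurus blastocysts in 3 groups of 3 libraries, labelled CTR (control), Nanuq and Cryotop. The RNA of 1 library was that of 5 to 10 pooled embryos, all hatched in the first 24 h after thawing, so embryos that did not hatch are not represented. The design names a control, a standard and an ultrafast cooling. The labels do not tie Nanuq or Cryotop to either, and do not say whether CTR embryos went through cooling. The wording on hatching after thawing sets no group apart, so what it means for CTR is unclear. "Cooled" below stands for Nanuq and Cryotop together, and "device" for which of these labels a pool carried. The labels also give no breed, embryo sex, embryo age or number of separate embryo productions, so the spread between pools may be partly technical.

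A blastocyst is an early embryo with an outer epithelium, the trophectoderm, around a fluid-filled cavity and a small inner cell mass. It hatches when it leaves its zona pellucida, the glycoprotein coat. Vitrification cools embryos so fast, in the presence of cryoprotectants, that the water forms a glass and not ice. Cryotop is the name of a thin film carrier used for this with oocytes and embryos, and the labels give Nanuq by name only. In pooled embryos a higher level of a transcript can come from more RNA per cell or from more cells of a type, and these cannot be told apart here. CPM is a share of a library, so a higher value is a larger share of the RNA and not a larger amount per embryo.

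Library totals ran from 3970666 counts in Cryotop replicate 1 to 25745731 in CTR replicate 2, and the second lowest was 16343398. Cryotop replicates 1 and 3 had the fewest genes with at least 1 count, 12104 and 12641, where the other 7 libraries had 13869 to 16338. These 2 libraries stand apart, and values without them are given where a result rests on them.

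As a whole the members were modestly higher in the cooled pools. The ratio of the mean cooled CPM to the mean CTR CPM had a median of 1.27 over the 97 genes and ran from 1.06 to 1.63. It was at least 1.2 for 77 genes and at least 1.5 for 6, and no member reached 2. Fitted by edgeR with all 9 libraries, the log2 fold change of cooled against CTR had a median of 0.36 over the members, with a range of 0.10 to 0.72, beside a median of 0.01 over the 4030 abundant genes and -0.03 over all 14005 genes tested. Without both Cryotop replicates 1 and 3 the median of the members was 0.34.

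**Figure D1:**
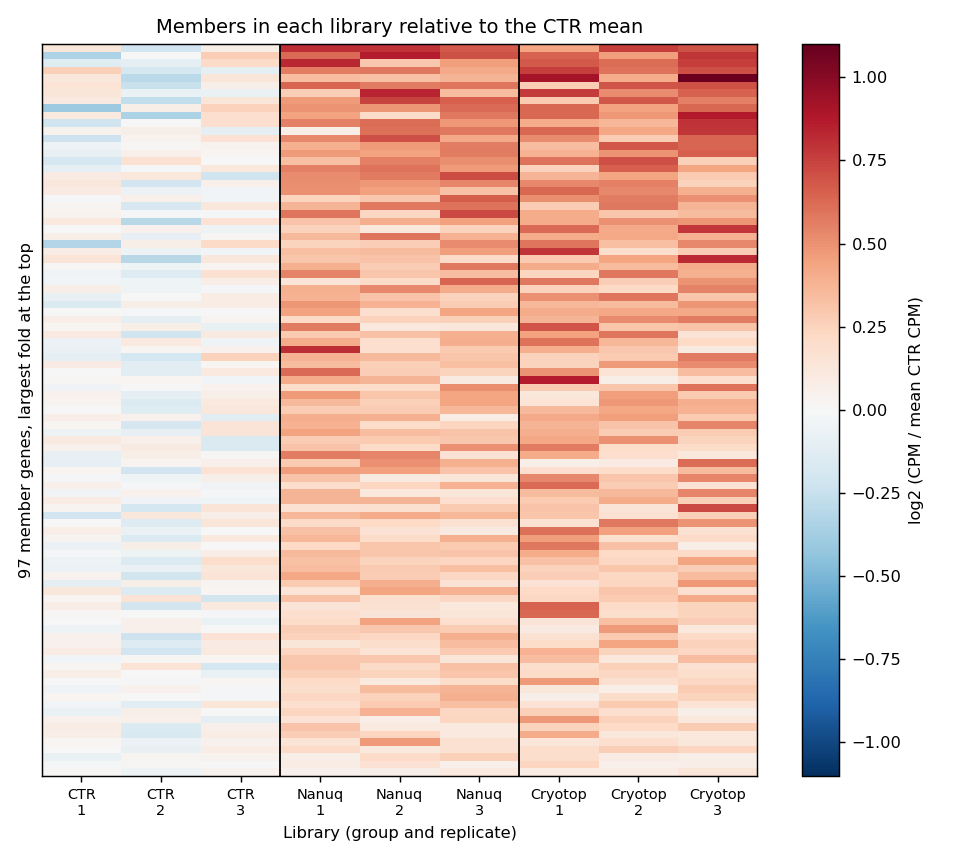
Level of each of the 97 members (rows, largest fold at the top) in each of the 9 libraries (columns), as log2 of the CPM divided by the mean CPM of CTR. CTR columns lie around 0 by construction and all cooled columns lie above the CTR columns of the same gene, which the choice of genes requires; the shading shows that few genes come near a log2 value of 1.

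Both device groups held about the same displacement from CTR. With the median taken over members for each library, as log2 of CPM relative to the CTR mean, Nanuq replicates 1, 2 and 3 were at 0.33, 0.30 and 0.33, and Cryotop replicates 1, 2 and 3 at 0.38, 0.32 and 0.35. The CTR replicates were at 0.02, -0.04 and 0.05. Cryotop replicates 1 and 3, the libraries with fewest detected genes, were the highest of the cooled libraries on this measure, by a small amount. In edgeR's fit the median log2 fold change of the members was 0.36 for Nanuq against CTR (range 0.11 to 0.80) and 0.38 for Cryotop against CTR (range 0.09 to 0.82). These comparisons share the same 3 CTR libraries, and the rule put both device groups above them, so their likeness is partly built in. Without both Cryotop replicates 1 and 3, that of Cryotop, then a single library, was 0.32.

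The margin between the groups was narrow for most members. The lowest cooled value divided by the highest CTR value had a median of 1.05 and a highest value of 1.26. It was below 1.05 for 47 members, at least 1.1 for 28 and at least 1.2 for 4. For 18 members the gap between the groups was wider, on the log2 scale, than the whole range of the 3 CTR libraries. The bounding cooled value of a member rested on at least 236 counts, with a median of 1821. Exact Poisson 95% intervals of the bounding pair of libraries, which cover counting error only, lay apart for 31 members and overlapped for 66. Among the 28 members with a ratio of at least 1.1 they lay apart for 21. The rule set the order of these same values, so the counts are a description and not a test.

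No single cooled library set the lower bound for most genes, but among the controls 1 library set the upper bound for many. CTR replicate 3 was the highest control for 50 members, CTR replicate 1 for 24 and CTR replicate 2 for 23. The lowest cooled library was Cryotop replicate 1 for 20 members, Nanuq replicate 2 for 19, Cryotop replicate 2 for 17, Cryotop replicate 3 for 15, Nanuq replicate 3 for 14 and Nanuq replicate 1 for 12. The highest cooled library was Cryotop replicate 3 for 24 members and Cryotop replicate 1 for 20. As the lowest or the highest, Cryotop replicates 1, 2 and 3 were at an extreme of the cooled libraries for 40, 34 and 39 members, and Nanuq replicates 1, 2 and 3 for 25, 29 and 27. The same counts over all abundant genes are not given, so a trait of the members cannot be told here from one of the libraries.

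**Figure D2:**
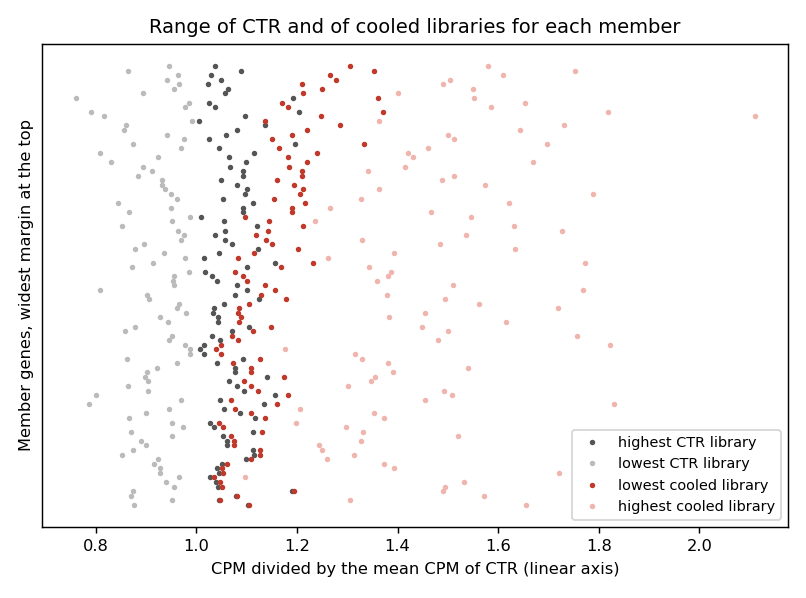
For each member (rows, widest margin at the top), the lowest and highest CTR library and the lowest and highest cooled library, as CPM divided by the mean CPM of CTR. The highest CTR and lowest cooled points nearly touch for the lower part of the plot (47 members have a ratio below 1.05), while the highest cooled points spread widely.

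The scaling decided membership for some of these genes. With totals adjusted by edgeR's TMM method, which trims extreme genes before scaling, 110 genes met the same rule, of which 83 were among the 97, so 14 members no longer met it and 27 other genes did. With DESeq2's size factors 121 genes met it, 85 of them among the 97. The members that no longer met it had ratios of at most 1.04, and all 28 members with a ratio of at least 1.1 still met it under both scalings. The mean of the cooled libraries stayed above the mean of CTR for all 97 genes under both.

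ENSBTAG00000016152 had the widest margin of all members. It measured 370, 405 and 397 CPM in CTR replicates 1, 2 and 3, then 540, 531 and 581 CPM in Nanuq, and 509, 550 and 617 CPM in Cryotop. The lowest cooled library was 1.26 times the highest control. Means ± SD (n = 3) were 391 ± 18.6 CPM for CTR, 551 ± 26.5 CPM for Nanuq and 559 ± 54.5 CPM for Cryotop, where the spread was widest. The log2 fold change of cooled against CTR was 0.52 ± 0.113 (SE, edgeR).

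ENSBTAG00000014529 had the second widest margin, 1.24, and the largest fold of the members, 1.63. It measured 61.4, 48.7 and 59.0 CPM in CTR replicates 1, 2 and 3. In Nanuq it measured 98.8, 97.7 and 90.0 CPM, and in Cryotop 76.3, 95.4 and 91.5 CPM. Cryotop replicate 1 was the lowest of the cooled libraries and the other 5 lay close together. Its log2 fold change of cooled against CTR was 0.72 ± 0.149 (SE).

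ENSBTAG00000043561 was by far the most abundant member, with a mean of 10996 CPM, or about 1% of all counts. It measured 7179, 9367 and 10374 CPM in CTR replicates 1, 2 and 3. Nanuq replicates measured 10610, 10815 and 12866 CPM and Cryotop replicates 13531, 11272 and 12946 CPM. The controls spread widely here, and CTR replicate 3 came within 1.02 times of the lowest cooled library. The log2 fold change of cooled against CTR was 0.43 ± 0.124 (SE).

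At the edge of the rule, ENSBTAG00000004965 had the smallest margin. Its highest control was 82.6 CPM (CTR replicate 3) and its lowest cooled value 82.7 CPM (Cryotop replicate 2), a ratio of 1.001. Just outside, the non-member ENSBTAG00000014691 had 183.1 CPM in CTR replicate 1 and 182.7 CPM in Cryotop replicate 2, a ratio of 0.998. In all, 12 members had a ratio up to 1.01 and 11 abundant genes just outside had one of 0.99 to 1.

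**Figure D3:**
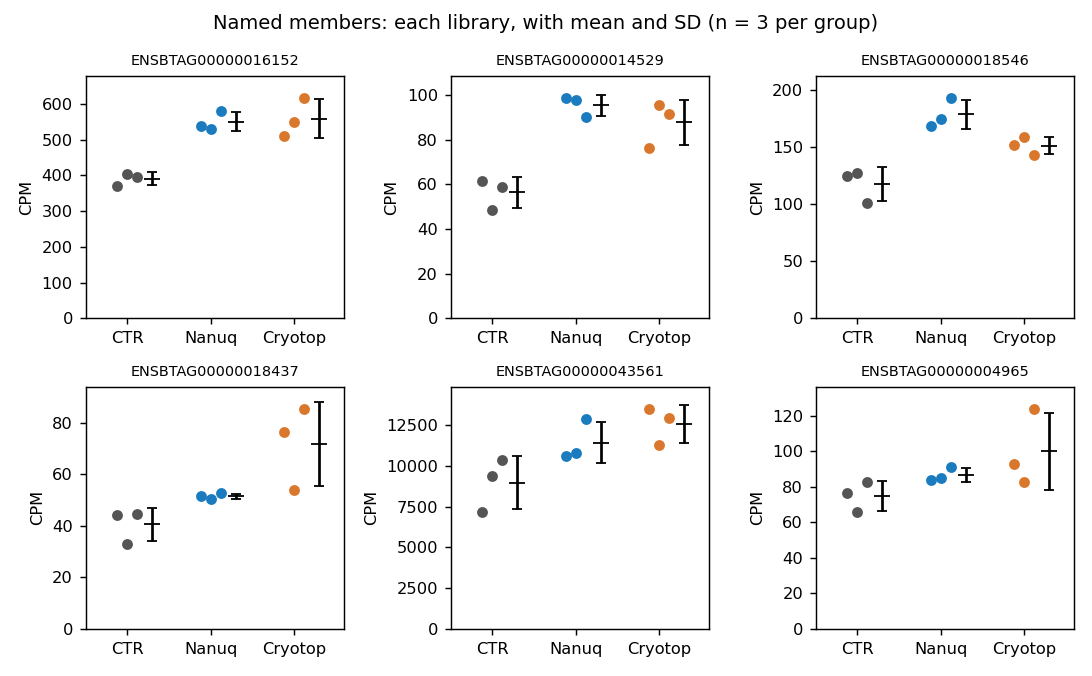
CPM of 6 named members in each library (points; replicates 1 to 3 from left to right in each group) with mean and SD (n = 3, black). ENSBTAG00000016152 and ENSBTAG00000014529 were named for the widest margins, so their step between CTR and both cooled groups follows from the choice. In ENSBTAG00000014529 the gap is 0.935 of the range of the CTR libraries on the log2 scale. In ENSBTAG00000043561 and ENSBTAG00000004965 the highest control lies next to the lowest cooled library.

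Members were found at every level of abundance. Their mean CPM ran from 51.0 to 10996, with a median of 132, beside 106 over the 4030 abundant genes. From 50 to 100 CPM there were 37 members, 1.96% of the genes of that class. From 100 to 500 CPM there were 51, or 2.73%, and at 500 CPM and above 9, or 3.26%. The median fold was 1.27, 1.27 and 1.31 in these classes. The class at 500 CPM and above includes 5 members with neighbouring identifiers, described below, with folds of 1.24 to 1.61. Its other members had folds of 1.31, 1.18, 1.18 and 1.16. The share and median fold of that class thus rest in large part on those 5 genes. Among genes averaging 5 to 50 CPM, 67 of 5821, 1.15%, had the same order of libraries. In the opposite direction, 128 of the 4030 abundant genes, 3.18%, were lower in all cooled libraries than in any control.

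The members had a smaller spread within groups than abundant genes in general. The median coefficient of variation between the 3 libraries was 7.55% in CTR, 6.25% in Nanuq and 9.66% in Cryotop, beside 13.4%, 9.71% and 14.5% over all abundant genes. The rule favours genes with little spread, so this difference is part of how they were chosen.

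Together the 97 genes made up a few percent of the RNA counted. They held 2.54%, 2.79% and 3.01% of counts in CTR replicates 1, 2 and 3, then 3.50%, 3.55% and 3.73% in Nanuq and 3.79%, 3.49% and 3.80% in Cryotop. As means ± SD (n = 3) this was 2.78 ± 0.234% for CTR, 3.60 ± 0.119% for Nanuq and 3.69 ± 0.173% for Cryotop.

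Much of that sum came from 5 of the 6 most abundant members, whose identifiers are close neighbours in number, from ENSBTAG00000043556 to ENSBTAG00000043584. This run was noticed after the values had been seen. ENSBTAG00000043561 is one of them. The 5 genes held 1.1%, 1.41% and 1.54% of counts in CTR replicates 1, 2 and 3, then 1.70%, 1.78% and 1.91% in Nanuq and 1.97%, 1.68% and 1.98% in Cryotop. CTR replicate 1 was the lowest control for all 5, and also for every other abundant gene of the run but ENSBTAG00000043563. The folds of cooled over CTR of the 5 members ran from 1.24 to 1.61.

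The other genes of that run did not all share the pattern. It holds 28 identifiers in the table, of which 14 averaged 50 CPM or more and 13 averaged under 1 CPM. Of the 9 abundant genes of the run that were not members, 7 had a higher mean in the cooled libraries than in CTR, with overlapping libraries, and 2 had a lower mean. The folds of the 7 ran from 1.23 to 1.48, near those of the members, and those of the 2 were 0.73 and 0.81.

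The remaining 92 members gave a sum that barely varied within groups. It was 1.44%, 1.39% and 1.47% in CTR replicates 1, 2 and 3, then 1.80%, 1.77% and 1.82% in Nanuq and 1.81%, 1.81% and 1.82% in Cryotop. Averages of selected genes are steadier than single genes, and the gap between groups is fixed by the choice.

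**Figure D4:**
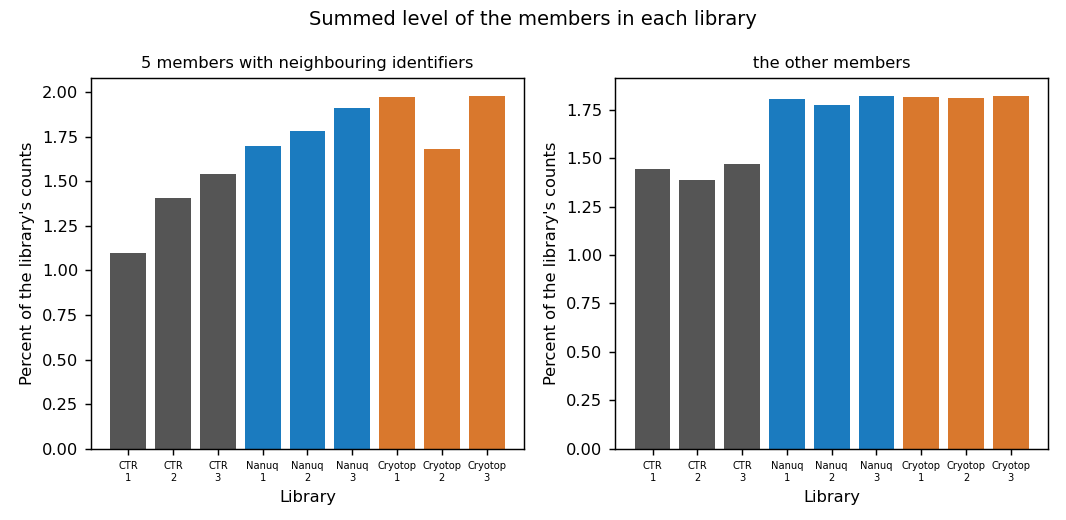
Percent of each library's counts held by the 5 members with neighbouring identifiers (left) and by the other 92 members (right), with bars from 0, grey for CTR, blue for Nanuq and orange for Cryotop. The left sum varies among the controls, from 1.1% to 1.54%, while the right sum lies between 1.39% and 1.47% in CTR and between 1.77% and 1.82% in the cooled libraries.

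Nanuq against Cryotop asks whether the level of the members differed between the device groups. Any difference in cooling between these groups goes with the label and cannot be told apart from it. The rule did not set the devices against each other, but it required the lowest of their 6 libraries to lie above every control. Genes that are low in 1 device group, or spread widely among cooled libraries, had less chance to become members. The members' values between devices are therefore also a description, and a smaller difference than in other genes is not read as a result. By edgeR's quasi-likelihood test, fitted on the whole table with Benjamini-Hochberg adjustment, 0 of the 97 members were called at an adjusted p under 0.05, where 0 of all 14005 genes (0%) were called. DESeq2 and limma voom also called 0 members. At an unadjusted p under 0.05 edgeR had 1 member, lower in Nanuq, which is 1.03% of the members beside 4.91% of all abundant genes and 4.06% of all genes tested. DESeq2 had 2 members at that level, beside 4.66% of its genes, and limma voom 0, beside 4.88%.

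The fitted differences between the devices were small. The 95% interval of the fold between Nanuq and Cryotop lay within 1.5-fold in either direction for 93 of the 97 members, within 2-fold for all 97, and within 1.25-fold for 8. Over all abundant genes these shares were 68.9%, 98.6% and 3.10%, beside 95.9%, 100% and 8.25% of the members. The choice of genes limits both the spread and the size of the difference between devices, so this contrast with other genes is partly built in. The log2 fold change of Nanuq against Cryotop had a median of 0.01 over the members and ran from -0.44 to 0.28. That median was -0.01 with DESeq2-style size factors and -0.03 with library size alone, so it has no settled sign.

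All 3 Nanuq libraries lay above all 3 Cryotop libraries for 3 members, 3.09%, beside 5.88% of abundant genes. The reverse order was seen for 6 members, 6.19%, beside 4.69% of abundant genes. In either direction this made 9 members, 9.28%, beside 10.6% of abundant genes, a share near that background. In plain CPM the mean of Nanuq was above that of Cryotop for 40 members, 41.2%, and for 51.6% of abundant genes.

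ENSBTAG00000018437 had the smallest p among members lower in Nanuq. It measured 51.5, 50.6 and 52.6 CPM in Nanuq replicates 1, 2 and 3, and 76.3, 53.9 and 85.6 CPM in Cryotop. In CTR it measured 44.2, 33.1 and 44.5 CPM. The device groups did not overlap, and Cryotop replicates 1 and 3, the libraries with fewest detected genes, were far above Cryotop replicate 2. The log2 fold change of Nanuq against Cryotop was -0.44 ± 0.204 (SE), with a 95% interval of -0.86 to -0.01, and it was not called over all genes. Without both Cryotop replicates 1 and 3 it was -0.03, and the part of those libraries' low gene detection in this difference was not tested.

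ENSBTAG00000018546 had the smallest p among members higher in Nanuq. It measured 169, 175 and 193 CPM in Nanuq replicates 1, 2 and 3 and 152, 159 and 143 CPM in Cryotop, after 125, 127 and 101 CPM in CTR. The 3 groups did not overlap at all for this gene. The log2 fold change of Nanuq against Cryotop was 0.28 ± 0.153 (SE), with a 95% interval of -0.04 to 0.60, and it was not called over all genes.

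**Figure D5:**
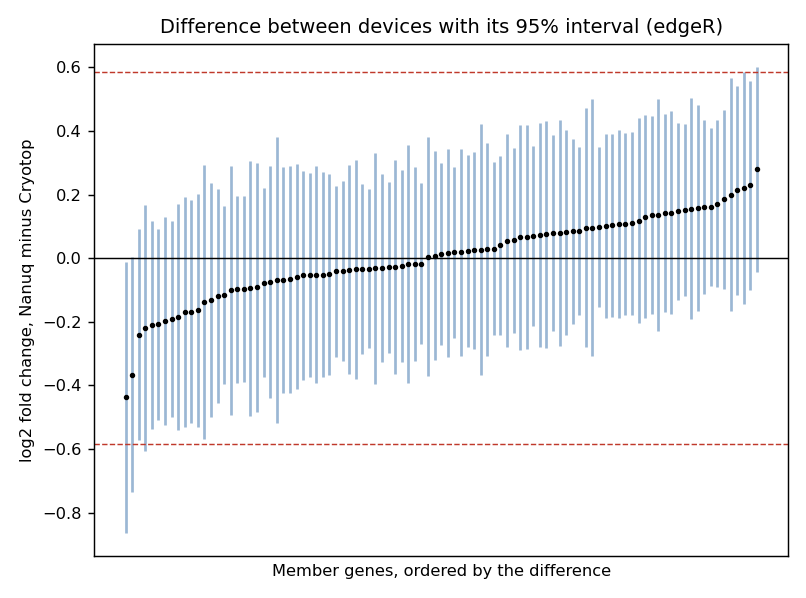
Log2 fold change of Nanuq against Cryotop for each of the 97 members, in order of size (points), with its 95% interval from edgeR (lines). The dashed lines mark 1.5-fold in either direction, which the intervals of 93 members stay within, and the intervals of all but 1 member span 0.

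In the contrast that chose the genes, tests over the whole table called few or none. For cooled against CTR edgeR called 0 of 14005 genes (0%) and so 0 members, with 881 genes (6.29%) at an unadjusted p under 0.05. Limma voom called 0 (0%), with 1426 genes (10.2%) at that unadjusted level. DESeq2 called 55 of 5997 genes with an adjusted p, 0.917%, of which 32 (0.534%) were higher in the cooled libraries, and 29 of the 97 members were among these. Nothing is read from the members' count, since the same values chose them.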

How the data were processed

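The authors deposited raw counts per gene, not normalized, for 27607 Ensembl identifiers in 9 libraries. Per the submitters' processing notes, Trim Galore 0.6.0, FastQC, STAR 2.7.0e, DESeq2 1.26.0 and the build ARS-UCD1.2 were used. For the counting tool, gene annotation and use of strand, nothing is given in the sources used here. Reads of overlapping or antisense genes and of near-identical copies may therefore have been merged, split or dropped. The library kit was NEBNext Ultra II, per the labels' protocols. Column names gave the samples, with 0 columns unused. The RefSeq table (37063 genes, ARS-UCD2.0) has 0 Ensembl entries, so 0 identifiers were paired with symbols, and the 23 gene lists prepared were not tested.

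CPM used the column sums. Tests used R 4.3.3 and edgeR 4.0.16: filterByExpr (14005 genes, all 97 members), TMM, robust quasi-likelihood fits of 9 libraries with 6 residual degrees of freedom. A standard error is the size of the log2 fold change over the root of its F value. For cooled against CTR it takes no account of how the genes were chosen. DESeq2 1.42.0 (whole table), limma 3.58.1 (voom), other scalings and filters, a replicate block and left-out libraries were alternatives. The edgeR fit of Nanuq against Cryotop was run on simulated counts with known changes. The rule and the other fits were not tested in this way. The outcome of that run is not given here, so how small a change the fit would call is not shown. Members and lists were chosen with earlier results of these data known. Named genes were the 2 members with the largest ratio, the most abundant one, the one with the smallest ratio, the nearest non-member, and the member with the smallest p in each direction between devices; the identifier run and its end points were added after the values were seen.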

Additional observations from a re-analysis of the deposited data

How the results depend on the processing

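The number of members depended on how many libraries had to be ordered and on the margin. A minimum of 100 CPM gave 60 genes and a ratio of at least 1.1 gave 28, where 20 CPM gave 130. Leaving out 1 library loosens the rule, since fewer libraries then have to be in order. It gave 113 to 261 genes, depending also on which library was left out. CTR replicate 3 left out gave the 261, CTR replicate 1 gave 187, CTR replicate 2 gave 169 and Cryotop replicate 1 gave 168. Without both Cryotop replicates 1 and 3, chosen after seeing the data, it was 255, of which 93 were among the 97. Between Nanuq and Cryotop, 0 members were called under all 17 alternatives. Over all genes edgeR called 7 with no filter on low counts, and 0 to 1 with 1 library left out (1 without Cryotop replicate 1 and 1 without Cryotop replicate 2). The 9 members whose device libraries did not overlap became 15 (without Nanuq replicate 2) to 26 (without Cryotop replicate 2) when 2 libraries were set against 3, or 15.5% and 26.8% of members beside 15.2% and 24.9% of abundant genes in the same settings. For cooled against CTR, edgeR with no filter on low counts called 6 members and 56 of 18783 genes (0.298%), where DESeq2 called 29 members. The median log2 fold change of the members for cooled against CTR stayed between 0.34 and 0.38. In a fit with a replicate block, edgeR found 0 genes and 0 members between the devices. Same-numbered libraries correlated, in their deviations from group means over abundant genes, at -0.04 to 0.23, above 0.1 for 5 of 9 pairs, where all 9 were required to treat the numbers as pairs. A library correlated best with its own number in 11 of 18 cases, where an even spread gives 6, which is a hint from the data and not from the design. Each group has 3 pools.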
